A study of Mus musculus with 12 samples.

Results

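Muscle stem cells (MuSCs) that had been cultured for 2 days and then held under compression for 3 more days (2+3d-C) were compared with MuSCs harvested at the point where compression began (2d-U). The comparison asks what changed from the starting state. It uses 6 of the 12 libraries of the series, taken by their treatment labels: replicates 4, 5 and 10 of 2+3d-C and replicates 1, 2 and 3 of 2d-U. All 55335 genes of the count tables entered, of which 22635 had enough reads to be tested. MuSCs of all groups were sorted as ZsGreen+ cells from the hindlimbs of Pax7-ZsGreen mice, 3 to 6 months old, whose reporter follows the Pax7 locus. They grew in a serum-rich medium with fibroblast growth factor on plastic coated with Matrigel and fibronectin, and no group carried a deletion or received a drug. Compression came from a silicone film with short pillars laid over the cells, which was lifted off just before lysis. The other 2 groups, with 3 libraries each, are given beside the comparison where they bear on it: 5d-U cells spent 5 days in the same culture without compression, and F cells were lysed on sorting. Compression and 3 further days of culture came together in this comparison and cannot be told apart within it.

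MuSCs lie between the muscle fibre and its basal lamina, where most of them rest outside the cell cycle. On injury or isolation they activate, express the myogenic factor MyoD, enter the cycle and multiply as myoblasts, and a part of them returns to rest. Culture on plastic drives the same activation.

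The 6 libraries held 12540745 to 62424851 reads assigned to genes, with replicate 5 of 2+3d-C the shallowest. Levels are given as RPKM, reads scaled to exon length and to library size, the latter adjusted by TMM (a factor that centres most genes). Values are listed in the order of replicates 1, 2 and 3 for 2d-U and 4, 5 and 10 for 2+3d-C. The TMM factors were 1.178 to 1.258 in 2d-U and 0.661 to 0.933 in 2+3d-C, and the 10 most abundant genes held 4.29% to 4.85% of the reads in 2d-U and 8.31% to 11.9% in 2+3d-C. Sex-linked reads also differed between the groups. All 3 2d-U libraries held Xist reads (149 to 503) and 0 reads on Y-linked genes, whereas replicates 4 and 5 of 2+3d-C held 37943 and 3303 Y-linked reads, and replicate 10 held 1802 Xist reads. Sex-linked reads thus moved with the group in 2 of 3 compressed libraries. For this reason an alternative fit left out replicates 4 and 5 of 2+3d-C. It keeps 1 compressed library, so it cannot tell these reads apart from other differences between the libraries. The part of sex-linked reads in the results was not tested. The labels number the libraries without naming separate mice or cultures. The p-values measure the spread between libraries of a group, which may be technical in part. It was estimated over all 12 libraries in 1 fit, so the spread within 5d-U and F enters too. Genes with reads numbered 15365 to 20724 in the 6 libraries compared and up to 47398 in the other groups. On olfactory receptor and similar genes taken as silent, these 6 libraries held 0.00937 to 0.186 reads per kilobase. Replicates 4 and 5 of F held 5.03 and 7.13, and replicate 1 of 5d-U 3.81. The other F and 5d-U libraries held 0.0587 to 0.635. The part of such reads in the F and 5d-U levels given below was not tested. In bulk RNA, fewer cells of a kind and less RNA per cell cannot be told apart.

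Markers of the lineage were present in both groups. Pax7, the transcription factor that marks MuSCs, stood at 6.46, 5.10 and 5.68 RPKM in 2d-U and 14.4, 15.0 and 10.3 RPKM in 2+3d-C, a difference in means that did not pass the test (adjusted p = 0.0723; 0.0322 with DESeq2). Myf5, a myogenic factor, stood at 77.2, 75.9 and 95.9 RPKM in 2d-U and 91.4, 107 and 178 RPKM in 2+3d-C, and Cdh15, the M-cadherin of MuSCs, at 32.2, 18.4 and 24.2 RPKM in 2d-U and 61.6, 37.4 and 65.5 RPKM in 2+3d-C. Myod1 stood at 739.8, 643 and 578 RPKM in 2d-U and 2769, 4540 and 2232 RPKM in 2+3d-C (log2 fold change 2.28, SE 0.44, adjusted p = 0.00206). It was thus among the 12 most abundant genes per length in the compressed cells, and its mean was 942 ± 349 RPKM in 5d-U and 488 ± 161 RPKM in F. Without replicates 4 and 5 of 2+3d-C the adjusted p of Myod1 was 0.0547. The leukocyte antigen gene Ptprc had 0 reads in all 6 libraries. Besides the genes named by a fixed rule, Myf5, Ptprc, Trp53, Mdm2, Hes1, Rbpj, Ern1, Eif2ak3, Atf6 and Pdgfra were chosen after their values were seen, as were the marker genes of other cells given at 0 reads.

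The test called 3619 genes higher and 1954 lower in the compressed cells (edgeR's quasi-likelihood test, Benjamini-Hochberg adjusted p under 0.05, n = 3 against 3), 16.0% and 8.63% of the genes tested. Over the 18239 tested genes with more than 3 reads in at least 1 of the 6 libraries, the shares were 19.8% and 10.7%. The changes were large: 2449 of the higher genes and 1106 of the lower genes differed by 8-fold or more. Of the higher genes, 1301 had at most 3 reads in every 2d-U library, and of the lower genes, 455 had at most 3 reads in every 2+3d-C library. The split depends on the scaling. With plain library sizes in place of TMM, 2540 genes were higher and 3143 lower, and the median of all tested genes shifted by -0.52 on the log2 scale. With replicates 4 and 5 of 2+3d-C left out, the counts were 2321 and 2221. The higher count was 2340 without 2d-U replicate 2 and 2391 without 2d-U replicate 3. No gene called in one direction was called in the other under any alternative tried.

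**Figure D1:**
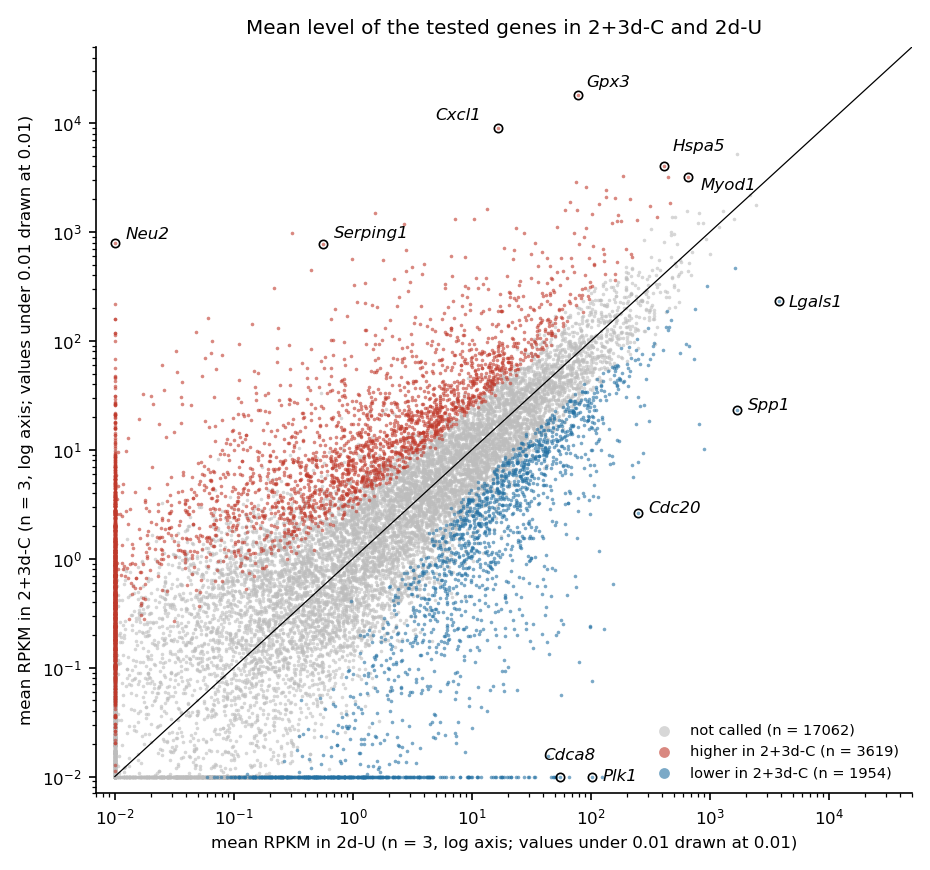
Mean RPKM of the 22635 tested genes in 2d-U (x axis) and 2+3d-C (y axis), n = 3 libraries each, on log axes with values under 0.01 drawn at 0.01. Red points are the 3619 genes higher and blue points the 1954 genes lower in 2+3d-C, the line marks equal levels, and named genes are ringed, with Gpx3 and Cxcl1 at the top and Plk1 and Cdca8 at the lower edge.

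The 12 largest rises under the fixed naming rule were in genes without a read in any 2d-U library. Neu2, a cytosolic sialidase, stood at 0 RPKM in 2d-U and 601, 1257 and 515 RPKM in 2+3d-C, at least 25580-fold higher when 2d-U is set to 3 reads in each library. Gbp2, an interferon-inducible GTPase, stood at 0 RPKM in 2d-U and 272, 292 and 85.5 RPKM in 2+3d-C (at least 6799-fold). Prelp, a leucine-rich proteoglycan that anchors basement membranes, stood at 0 RPKM in 2d-U and 137, 52.1 and 154 RPKM in 2+3d-C (at least 5150-fold). All 3 had no read in any 2d-U library and were high in every compressed library. Others of the 12 largest rises were Dpt, Cyp26a1, Vtn, Iigp1, Steap4, Ccl11, Itih5 and H2-Q6, each with 0 reads in 2d-U and at least 1789-fold higher. They include matrix proteins (Dpt, Vtn, Itih5) and a retinoic acid hydroxylase (Cyp26a1, 0 RPKM in 2d-U and 66.1, 226 and 62.8 RPKM in 2+3d-C).

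A few genes also changed the make-up of the library. Gpx3, which encodes a secreted selenium-containing glutathione peroxidase, stood at 78.8, 83.7 and 71.7 RPKM in 2d-U and 9470, 30010 and 14850 RPKM in 2+3d-C (log2 fold change 7.86, SE 0.91, adjusted p = 4.94e-05). Together with the chemokine gene Cxcl1 it took 2.57%, 5.94% and 2.71% of all reads in 2+3d-C, against 0.0174% to 0.0255% in 2d-U. Lgals1 and Spp1, among the 12 most abundant genes of 2d-U, went the other way. Lgals1, which encodes galectin-1, stood at 3306, 4542 and 3492 RPKM in 2d-U and 107, 350.4 and 246 RPKM in 2+3d-C (log2 fold change -4.01, SE 0.70, adjusted p = 9.67e-04). Spp1, the gene of the secreted phosphoprotein osteopontin, stood at 1865, 1728 and 1517 RPKM in 2d-U and 6.25, 41.9 and 22.2 RPKM in 2+3d-C (log2 fold change -6.19, SE 1.01, adjusted p = 6.07e-04). Neither gene overlapped between the groups, and in 5d-U the means were 8689 ± 7077 and 8336 ± 7367 RPKM. Other genes among the most abundant of the compressed cells were Errfi1, a feedback inhibitor of the epidermal growth factor receptor, at 203, 171 and 190.0 RPKM in 2d-U and 4366, 3176 and 2209 RPKM in 2+3d-C (log2 fold change 4.11, SE 0.50, adjusted p = 7.37e-05), and Sqstm1, the autophagy receptor p62, at 142, 119 and 138 RPKM in 2d-U and 2598, 2804 and 1933 RPKM in 2+3d-C (log2 fold change 4.20, SE 0.46, adjusted p = 2.99e-05).

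Cell cycle genes were the clearest loss. Of 71 tested genes of mitosis and the spindle, 65 fell and 0 rose, with a median log2 fold change of -7.12 (-6.90 with genes at 0 set to their bounds). Of 58 genes of DNA replication, 49 fell and 0 rose (median -3.59). The background is 8.63% lower and a median of 0 over all tested genes. Cdc20, the activator of the anaphase-promoting complex, stood at 250.2, 266 and 235 RPKM in 2d-U and 2.72, 5.10 and 0.0977 RPKM in 2+3d-C (log2 fold change -6.60, SE 1.01, adjusted p = 3.93e-04). Plk1, the kinase that drives entry into mitosis, stood at 116, 91.2 and 102 RPKM in 2d-U and 0.00851, 0 and 0 RPKM in 2+3d-C, where the value of replicate 4 is 1 read. Ccnb1, cyclin B1, stood at 79.2, 79.5 and 80.0 RPKM in 2d-U and 0.306, 0.0286 and 0 RPKM in 2+3d-C (log2 fold change -9.21, SE 1.16, adjusted p = 8.92e-05). Plk1 and Ccnb1 were at or near 0 in every compressed library, and Cdc20 was lower in each of them than in any 2d-U library. Without overlap between the groups, 68 of the 71 mitotic genes were lower, as were 3944 of all 22635 tested genes. Aurkb, Bub1, Cdca3, Cdca8, Ect2, Kif2c, Melk, Ncapg and Nuf2, which serve the kinetochore, chromosomes and cell division, were among the 12 largest falls under the fixed naming rule. They had 0 reads in every 2+3d-C library. Cdca8, a subunit of the chromosomal passenger complex, stood at 50.8, 57.9 and 55.5 RPKM in 2d-U and 0 RPKM in 2+3d-C, at least 1531-fold lower. In 5d-U, cultured as long without compression, the means were 214 ± 27.6 RPKM for Cdc20, 74.6 ± 20.8 for Plk1 and 74.1 ± 21.3 for Ccnb1. In F they were 6.27 ± 4.96, 2.13 ± 2.54 and 2.07 ± 1.88 RPKM.

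Replication genes fell less evenly. Rrm2, the small subunit of ribonucleotide reductase, stood at 878, 858 and 947 RPKM in 2d-U and 10.3, 18.3 and 2.19 RPKM in 2+3d-C (log2 fold change -6.45, SE 0.94, adjusted p = 2.60e-04). Mcm5, a subunit of the replicative helicase, stood at 123, 97.9 and 98.4 RPKM in 2d-U and 8.23, 6.67 and 6.66 RPKM in 2+3d-C (log2 fold change -3.89, SE 0.44, adjusted p = 3.91e-05). These genes kept reads in every compressed library. Mcm10 and Exo1, a replication factor and an exonuclease of mismatch repair, had 0 reads in all 3 (at least 472-fold and 419-fold lower). Pcna, the sliding clamp, overlapped between the groups at 109, 112 and 94.2 RPKM in 2d-U and 48.9, 107 and 34.9 RPKM in 2+3d-C and was not called (adjusted p = 0.36).

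The start regions of mitotic genes share sequence features that the choice of genes did not use. Mitotic promoters often pair CCAAT boxes, which bind NF-Y, with a CHR element, which binds the DREAM complex and its activating partners. RefSeq windows of 300 bases (250 before and 50 after each start, GRCm38.p6) existed for 62 of the mitosis genes, in 68 windows. TTTGAA, the core of the CHR element, was found on either strand in 64.7% of them and in 17.9% of all 32851 windows. CCAAT was found in 77.9% against 37.4%, and both in 57.4% against 6.95%. The E2F motif TTTNGCGC was found in 21.1% of the 57 windows of replication genes and in 1.38% of all windows. A match is a string of letters, not evidence of binding. Below are the 250 bases before the start of Cdc20 (chr4:118437344-118437593, minus strand) and Ncapg (chr5:45669675-45669924, plus strand), shown because both hold the pair and both genes lost nearly all or all of their reads. Capitals mark CCAAT or its reverse complement and TTTGAA. The TTTGAA begins 18 bases before the start in Cdc20 and 30 bases before it in Ncapg.
Cdc20: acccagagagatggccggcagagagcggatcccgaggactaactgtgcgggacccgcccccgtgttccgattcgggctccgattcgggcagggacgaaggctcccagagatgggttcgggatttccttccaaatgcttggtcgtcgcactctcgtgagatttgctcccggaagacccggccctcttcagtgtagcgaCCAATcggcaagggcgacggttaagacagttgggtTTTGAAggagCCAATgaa
Ncapg: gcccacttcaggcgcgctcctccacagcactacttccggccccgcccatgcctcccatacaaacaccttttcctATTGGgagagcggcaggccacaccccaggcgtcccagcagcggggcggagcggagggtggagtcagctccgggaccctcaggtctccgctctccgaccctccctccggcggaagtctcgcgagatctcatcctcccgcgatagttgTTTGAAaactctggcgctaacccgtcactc

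**Figure D2:**
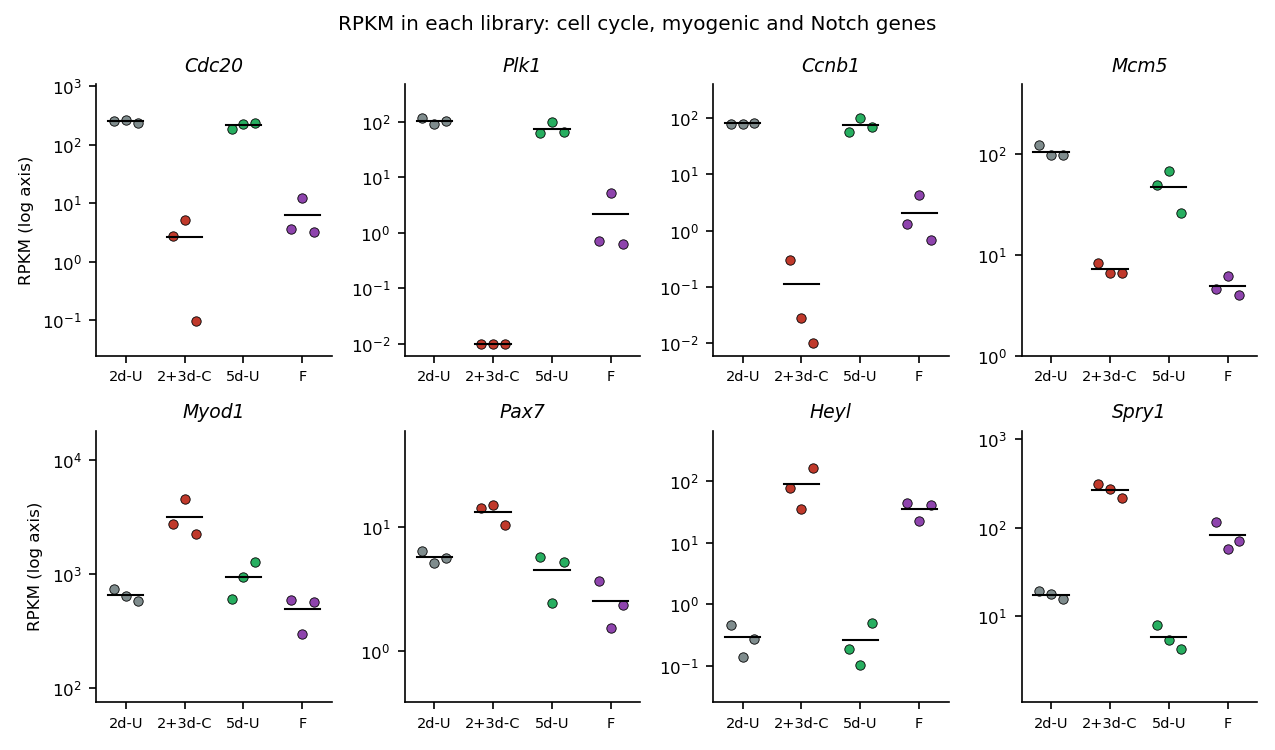
RPKM in each library (points, log axes, values under 0.01 drawn at 0.01) and the group mean (bar) for 8 genes in 2d-U, 2+3d-C, 5d-U and F, n = 3 libraries each. The 2+3d-C points of Cdc20, Plk1, Ccnb1 and Mcm5 lie below all points of 2d-U and 5d-U, whereas Myod1, Pax7, Heyl and Spry1 lie above 2d-U without overlap, Pax7 without passing the test.

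Of 20 cyclins, kinases and factors of the G1 phase, 15 fell. Ccne1, cyclin E1, stood at 57.1, 53 and 49.0 RPKM in 2d-U and 0.605, 0 and 0.0343 RPKM in 2+3d-C (log2 fold change -7.70, SE 1.07, adjusted p = 1.86e-04), and Cdk4, the partner of D-type cyclins, at 290.0, 292 and 288 RPKM in 2d-U and 36.3, 56.6 and 41.0 RPKM in 2+3d-C (log2 fold change -2.70, SE 0.40, adjusted p = 2.71e-04). The growth regulator Myc rose against the rest of its list, from 170.2, 153 and 159.6 RPKM to 2050, 2764 and 1283 RPKM (log2 fold change 3.66, SE 0.55, adjusted p = 3.19e-04). E2f5, the other gene of the list to rise, lost the call in 8 of the alternatives. Of 10 inhibitors of cyclin-dependent kinases and RB family genes, 2 rose and 2 fell. The lower count was 5 without 2+3d-C replicate 4, 1 without replicate 5, 4 without both and 0 with the 2 groups alone. Cdkn1a, the inhibitor p21, stood at 46.2, 49.4 and 48.7 RPKM in 2d-U and 152, 504 and 215 RPKM in 2+3d-C (log2 fold change 2.59, SE 0.60, adjusted p = 0.00665), and had a mean of 374 ± 342 RPKM in 5d-U. Cdkn1c, the inhibitor p57, stood at 0.204, 0 and 0 RPKM in 2d-U and 12.5, 52.0 and 26.9 RPKM in 2+3d-C (log2 fold change 8.63, SE 1.37, adjusted p = 5.02e-04). It shares 30.6% of its exon bases with another gene and the reads were counted without strand, so its count is uncertain.

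Genes of the p53 response changed in both directions. Of 29, 11 rose and 8 fell (5 without 2d-U replicate 2). Btg2, an antiproliferative gene that is also immediate-early, stood at 3.23, 1.68 and 4.22 RPKM in 2d-U and 401, 398 and 242 RPKM in 2+3d-C (log2 fold change 6.83, SE 0.58, adjusted p = 6.26e-06). Ccng1, cyclin G1, stood at 35.7, 33.6 and 38.2 RPKM in 2d-U and 6.25, 2.64 and 7.71 RPKM in 2+3d-C (log2 fold change -2.69, SE 0.50, adjusted p = 0.00162), and was 138 ± 46.0 RPKM in 5d-U. Trp53 itself and Mdm2 were not called.

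The study's own panel of 15 quiescence genes had 13 higher and 0 lower, and its panel of 12 activation genes had 0 higher and 11 lower. The panels were chosen by the study on these samples, so their counts are not independent evidence of a direction. Apoe, an apolipoprotein, stood at 3.04, 2.83 and 2.18 RPKM in 2d-U and 594, 1862 and 1079 RPKM in 2+3d-C (log2 fold change 8.78, SE 0.91, adjusted p = 2.35e-05). Spry1, an inhibitor of receptor tyrosine kinase signalling, stood at 19, 17.8 and 15.4 RPKM in 2d-U and 310.0, 277 and 216 RPKM in 2+3d-C (log2 fold change 3.94, SE 0.43, adjusted p = 3.08e-05), with 24.4% of its exon bases shared with another gene. Pmp22, a myelin protein that MuSCs and Schwann cells express, stood at 7.46, 8.22 and 8.58 RPKM in 2d-U and 119, 235 and 63.0 RPKM in 2+3d-C (log2 fold change 4.10, SE 0.57, adjusted p = 1.84e-04). Col6a1, a chain of the collagen VI of the niche, stood at 0.0775, 0 and 0 RPKM in 2d-U and 47.8, 8.4 and 50.6 RPKM in 2+3d-C (log2 fold change 10.20, SE 1.38, adjusted p = 1.50e-04). In these 4 genes the compressed libraries were all above the 2d-U libraries by many-fold. In F their means were 362 ± 195, 81.4 ± 30.6, 278 ± 45.2 and 149 ± 97.6 RPKM. Of the activation panel, Myog, the factor of terminal differentiation, stood at 2.17, 0.471 and 1.77 RPKM in 2d-U and 0.0125, 0 and 0 RPKM in 2+3d-C and was not called (adjusted p = 0.0869; 0.00736 with DESeq2). Mki67, the proliferation marker, stood at 1.93, 2.63 and 2.16 RPKM in 2d-U and 0.00372, 0 and 0 RPKM in 2+3d-C.

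Of 22 myogenic factors, 9 rose and 1 fell. The count of rises was 5 without 2d-U replicate 2 or 3, 5 without TMM and 5 without replicates 4 and 5 of 2+3d-C. Msc, a repressor of MyoD-driven transcription also called MyoR, stood at 1.42, 1.43 and 0.921 RPKM in 2d-U and 282, 519.5 and 216 RPKM in 2+3d-C (log2 fold change 8.07, SE 1.06, adjusted p = 1.23e-04), with 21.2% of its exon bases shared. Id4, which blocks bHLH factors, stood at 0.221, 0.152 and 0.402 RPKM in 2d-U and 7.11, 10.6 and 6.12 RPKM in 2+3d-C (log2 fold change 4.93, SE 0.76, adjusted p = 4.09e-04). Id1 overlapped between the groups, at 202, 222 and 233 RPKM in 2d-U and 119, 449 and 241 RPKM in 2+3d-C. Of 52 differentiation genes, 16 rose (10 without 2d-U replicate 1) and 5 fell. The rises were 30.8% of the list, against 16.0% of all tested genes. The falls, 9.6%, lie near the 8.63% of all tested genes and do not set the list apart. Des, the intermediate filament desmin, stood at 148, 131 and 111 RPKM in 2d-U and 544, 561 and 508 RPKM in 2+3d-C (log2 fold change 2.05, SE 0.40, adjusted p = 0.00221). Chrna1, a subunit of the muscle acetylcholine receptor, stood at 350.3, 299 and 268 RPKM in 2d-U and 15.4, 22.2 and 17.7 RPKM in 2+3d-C (log2 fold change -4.05, SE 0.75, adjusted p = 0.00149), against a 5d-U mean of 578 ± 196 RPKM. Tpm1, a tropomyosin, stood at 299, 266 and 269.7 RPKM in 2d-U and 18.5, 44.1 and 15.6 RPKM in 2+3d-C (log2 fold change -3.42, SE 0.54, adjusted p = 4.88e-04). Both were lower in each compressed library than at day 2, whereas desmin was higher.

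Notch signalling, in which a ligand on a neighbour cell frees the receptor's intracellular domain to act with Rbpj on Hes and Hey genes, is known to hold MuSCs in quiescence. Of 32 receptors, ligands and enzymes, 13 rose (8 without 2d-U replicate 3 and 8 without TMM) and 1 fell. Among receptors, Notch3 stood at 0.205, 0.546 and 0.514 RPKM in 2d-U and 56.5, 9.64 and 46.3 RPKM in 2+3d-C (log2 fold change 6.48, SE 0.93, adjusted p = 2.44e-04). Among ligands, Jag1 stood at 0.651, 0.396 and 0.539 RPKM in 2d-U and 36.1, 5.86 and 7.78 RPKM in 2+3d-C (log2 fold change 4.97, SE 0.79, adjusted p = 4.90e-04). Both were higher in every compressed library than in any 2d-U library, and the shallow replicate 5 was the lowest of the compressed libraries for each. Of 8 Hes, Hey and related target genes, 4 rose and 1 fell. Heyl stood at 0.469, 0.138 and 0.273 RPKM in 2d-U and 76.7, 34.9 and 164 RPKM in 2+3d-C (log2 fold change 8.27, SE 0.87, adjusted p = 2.39e-05), and Hey1 at 0.948, 1.15 and 0.793 RPKM in 2d-U and 15.1, 11.5 and 10.8 RPKM in 2+3d-C (log2 fold change 3.69, SE 0.69, adjusted p = 0.00159). Heyl was 0.265 ± 0.213 RPKM in 5d-U and 36.0 ± 11.8 in F. Hes1 did not pass the test (adjusted p = 0.0828), and the cofactor Rbpj overlapped between the groups at 4.47, 2.90 and 4.82 RPKM in 2d-U and 5.19, 0.974 and 4.60 RPKM in 2+3d-C. Hes6, a factor of differentiating myoblasts, stood at 217, 265 and 196 RPKM in 2d-U and 6.56, 5.94 and 4.31 RPKM in 2+3d-C (log2 fold change -5.33, SE 1.39, adjusted p = 0.0129), and was 1910 ± 2196 RPKM in 5d-U. Without replicates 4 and 5 of 2+3d-C the adjusted p of Hes6 was 0.0935. Notch3 is also a marker of pericytes, whose markers rose too.

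Immediate-early genes, which serum, stress and handling of cells induce within minutes, were high. Of 33, 26 rose and 1 fell (median log2 fold change 4.46). Fos stood at 1.07, 0.449 and 1.41 RPKM in 2d-U and 446, 739 and 498 RPKM in 2+3d-C (log2 fold change 9.16, SE 0.72, adjusted p = 3.77e-06). Egr1, a zinc-finger factor, stood at 20.1, 12.8 and 7.71 RPKM in 2d-U and 2291, 1363 and 1201 RPKM in 2+3d-C (log2 fold change 6.90, SE 0.77, adjusted p = 3.64e-05). Atf3, a stress-induced factor of the ATF family, stood at 1.17, 1.42 and 1.21 RPKM in 2d-U and 198, 322 and 147 RPKM in 2+3d-C (log2 fold change 7.46, SE 0.61, adjusted p = 4.59e-06). The groups lay far apart in all 3 genes. In F, which was lysed after enzymatic isolation and sorting, the means were 825 ± 148, 1064 ± 483 and 312 ± 47.2 RPKM, and in 5d-U 3.57 ± 2.45, 7.55 ± 5.82 and 2.24 ± 1.56 RPKM. The device was lifted off before lysis in 2+3d-C alone, and the part of that step in these levels was not tested. Klf10 was the gene of the list that fell (log2 fold change -1.53, SE 0.38, adjusted p = 0.00933). Its call was lost without 2d-U replicate 1 (adjusted p = 0.0569) and without replicates 4 and 5 of 2+3d-C (adjusted p = 0.0726).

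Inflammatory genes rose with them. Of 36 chemokines and cytokines, 23 rose and 2 fell, and of 23 NF-kB subunits and inhibitors, 17 rose and 1 fell. NF-kB is the factor that carries inflammatory signals to these genes and induces its own inhibitors. Cxcl1, a chemokine that draws neutrophils, stood at 2.53, 7.22 and 39.7 RPKM in 2d-U and 6884, 18850 and 1157 RPKM in 2+3d-C (log2 fold change 9.09, SE 1.6, adjusted p = 0.00104). Cxcl2, its close relative, stood at 0.0548, 0 and 0.877 RPKM in 2d-U and 782, 1996 and 141 RPKM in 2+3d-C (log2 fold change 11.57, SE 1.70, adjusted p = 2.80e-04). Il6, the gene of interleukin-6, stood at 0, 0 and 0.182 RPKM in 2d-U and 141, 295 and 52.1 RPKM in 2+3d-C (log2 fold change 11.27, SE 1.51, adjusted p = 1.42e-04). The 3 compressed libraries differed more than 10-fold for Cxcl1, with replicate 10 the lowest and replicate 5 the highest, and all lay above 2d-U, whose own libraries also spread. Among the regulators, Nfkbia, the inhibitor IkB-alpha, stood at 59.6, 67.3 and 149 RPKM in 2d-U and 1571, 4633 and 1530 RPKM in 2+3d-C (log2 fold change 4.81, SE 0.70, adjusted p = 2.65e-04), Rela at 37.0, 31.8 and 39.2 RPKM in 2d-U and 441, 289.8 and 301 RPKM in 2+3d-C (log2 fold change 3.26, SE 0.37, adjusted p = 4.17e-05), and Nfkb1 at 1.72, 2.51 and 2.89 RPKM in 2d-U and 70.2, 62.2 and 70.8 RPKM in 2+3d-C (log2 fold change 4.83, SE 0.50, adjusted p = 2.37e-05). Rela and Nfkb1 were even between compressed libraries, and Nfkbia was highest in replicate 5. Cebpb, a factor of inflammatory genes, stood at 58.6, 68.8 and 98.6 RPKM in 2d-U and 1790, 4954 and 1884 RPKM in 2+3d-C (log2 fold change 5.25, SE 0.62, adjusted p = 5.47e-05), with 20.7% of its exon bases shared. Csf1, the macrophage growth factor, and Ccl17 were the genes that fell, and the call of each was lost in at least 5 alternatives. Immune cell markers moved with this group: their summed level over 28 genes was 3.58 to 7.15 RPKM in 2d-U and 127, 308 and 18.5 RPKM in 2+3d-C, where 10 of them, among them Ptprc, Adgre1, Itgax and Cd3e, had 0 reads in all 3 libraries. Their part in the chemokine levels was not tested.

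Of 28 promoter windows of the chemokine and cytokine genes, 21.4% held a 10-base NF-kB motif on either strand, against 4.51% of all windows. The 250 bases before the start of Cxcl1 (chr5:90890995-90891244, plus strand, GRCm38.p6) are shown because Cxcl1 was the most abundant gene of the list in 2+3d-C. Capitals mark the overlapping matches on both strands, which begin 71 and 70 bases before the start.
Cxcl1: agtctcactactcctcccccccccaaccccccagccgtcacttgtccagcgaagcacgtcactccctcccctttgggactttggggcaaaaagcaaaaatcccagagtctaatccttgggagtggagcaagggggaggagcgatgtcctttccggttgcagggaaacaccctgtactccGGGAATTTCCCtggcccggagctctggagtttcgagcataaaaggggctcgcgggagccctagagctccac

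Stress of the endoplasmic reticulum is met by the unfolded protein response, in which the sensors Ern1, Eif2ak3 and Atf6 raise chaperones. Of its 22 genes, 12 rose and 0 fell. Hspa5, the main chaperone of the compartment (BiP), stood at 436, 386 and 418 RPKM in 2d-U and 3717, 4780 and 3644 RPKM in 2+3d-C (log2 fold change 3.29, SE 0.50, adjusted p = 3.90e-04). Xbp1, the factor that Ern1 activates by splicing, stood at 43.1, 43.7 and 40.4 RPKM in 2d-U and 490.5, 814 and 414 RPKM in 2+3d-C (log2 fold change 3.76, SE 0.48, adjusted p = 9.23e-05), and Herpud1, a degradation factor, at 40.4, 45.7 and 50.1 RPKM in 2d-U and 396, 692 and 387 RPKM in 2+3d-C (log2 fold change 3.44, SE 0.49, adjusted p = 2.32e-04). The groups lay apart in all 3 genes, and the sensor genes Ern1, Eif2ak3 and Atf6 also rose, Eif2ak3 not without 2d-U replicate 2. Hspa5 had a mean of 438 ± 129 RPKM in 5d-U and 2439 ± 1766 RPKM in F. The ER stress response element, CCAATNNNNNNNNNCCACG, which holds a CCAAT box, was found in 8 of 19 promoter windows of the list (42.1%) and in 0.119% of all windows. It is shown in capitals in the 250 bases before the start of Hspa5 (chr2:34771840-34772089, plus strand), where it begins 65 bases before the start.
Hspa5: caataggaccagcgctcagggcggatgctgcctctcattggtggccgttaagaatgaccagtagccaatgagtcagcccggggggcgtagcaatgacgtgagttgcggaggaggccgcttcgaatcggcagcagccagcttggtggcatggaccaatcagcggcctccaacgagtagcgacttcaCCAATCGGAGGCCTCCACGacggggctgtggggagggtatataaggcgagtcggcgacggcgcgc

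The integrated stress response, which runs through Atf4 to genes of amino acid supply, split. Of 41 genes, 14 rose (7 without replicates 4 and 5 of 2+3d-C) and 11 fell (6 without 2d-U replicate 1 or 3, 7 without 2+3d-C replicate 10). Ppp1r15a, the phosphatase subunit that ends the response, stood at 20.4, 21.5 and 28.5 RPKM in 2d-U and 990.1, 1637 and 636 RPKM in 2+3d-C (log2 fold change 5.53, SE 0.53, adjusted p = 1.23e-05). The enzymes of serine synthesis went down. Phgdh, the first enzyme of that pathway, stood at 287, 278 and 262 RPKM in 2d-U and 8.95, 10.6 and 8.31 RPKM in 2+3d-C (log2 fold change -4.89, SE 0.58, adjusted p = 5.74e-05). Psat1, the next, stood at 130.4, 120.0 and 126 RPKM in 2d-U and 14.9, 27.2 and 11.2 RPKM in 2+3d-C (log2 fold change -2.82, SE 0.46, adjusted p = 6.14e-04). Shmt2, which passes serine carbon into the mitochondrial folate pool, stood at 211, 190.1 and 189 RPKM in 2d-U and 33.6, 28.4 and 29.3 RPKM in 2+3d-C (log2 fold change -2.69, SE 0.38, adjusted p = 1.95e-04). Asns, asparagine synthetase, stood at 143, 152 and 154 RPKM in 2d-U and 3.53, 17.2 and 5.35 RPKM in 2+3d-C (log2 fold change -4.12, SE 0.61, adjusted p = 2.97e-04). All were low in each compressed library. The 5d-U means were 239 ± 118, 105 ± 47.1, 121 ± 36.3 and 144 ± 62.4 RPKM, and the F means 10.1 ± 7.60, 9.92 ± 2.74, 15.1 ± 3.58 and 19.6 ± 7.92 RPKM. Of 39 heat shock genes, 11 rose (7 without replicates 4 and 5 of 2+3d-C) and 2 fell. The lower count was 1 without any one library, 7 with the 2 groups alone and 9 without TMM. Bag3, a co-chaperone of Hsp70 that rose, stood at 29.8, 22.5 and 23.5 RPKM in 2d-U and 347, 399 and 326 RPKM in 2+3d-C (log2 fold change 3.82, SE 0.46, adjusted p = 5.93e-05). The median of that list, 0.45, turned to -0.15 without TMM and to -0.06 without 2+3d-C replicate 5.

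**Figure D3:**
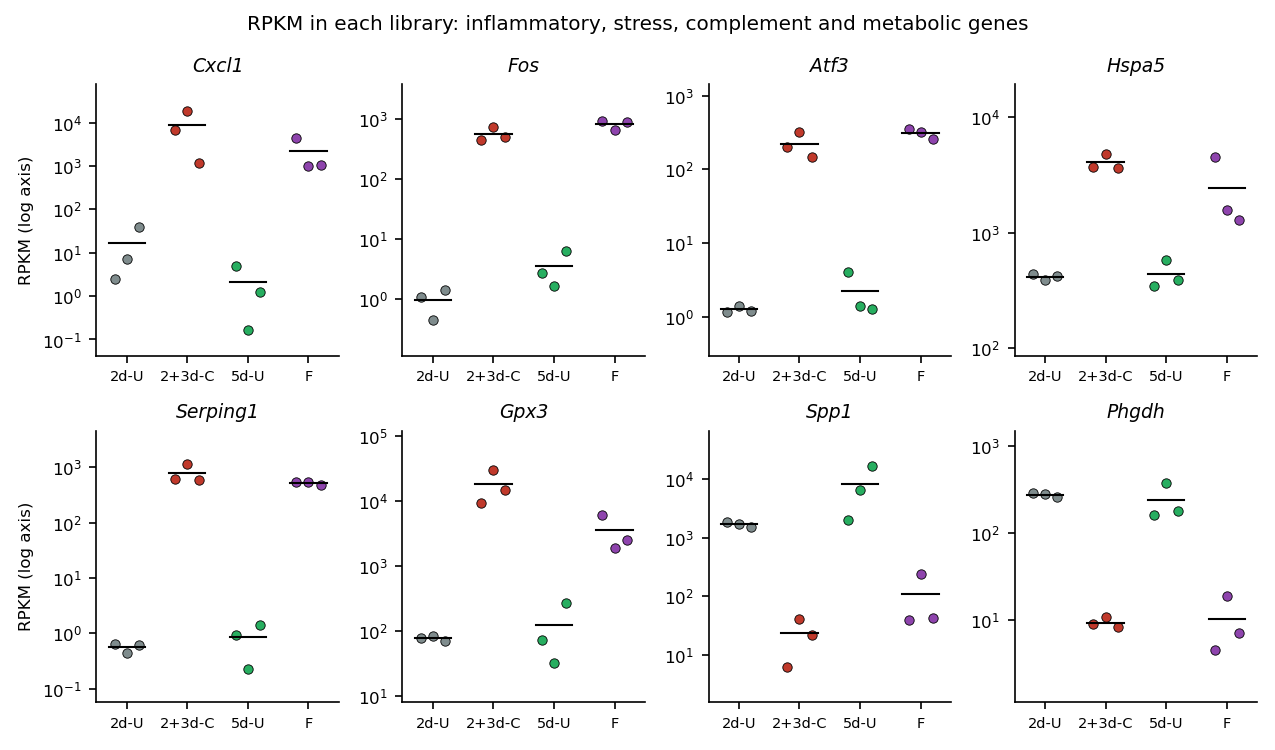
RPKM in each library (points, log axes) and the group mean (bar) for 8 genes in 2d-U, 2+3d-C, 5d-U and F, n = 3 libraries each. Cxcl1, Fos, Atf3, Hspa5, Serping1 and Gpx3 have all 2+3d-C points above those of 2d-U and 5d-U, and Spp1 and Phgdh have them below.

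Metabolic genes fell in part. Of 38 genes of glycolysis and the TCA cycle, 16 fell (25 without TMM) and 2 rose. Eno1, enolase, stood at 752, 732 and 723 RPKM in 2d-U and 34.2, 107 and 63.8 RPKM in 2+3d-C (log2 fold change -3.43, SE 0.48, adjusted p = 2.05e-04). Ldha, lactate dehydrogenase A, stood at 953, 997 and 916 RPKM in 2d-U and 232, 455 and 265 RPKM in 2+3d-C (log2 fold change -1.59, SE 0.37, adjusted p = 0.00703). Cs, citrate synthase, stood at 76.1, 65.5 and 68.4 RPKM in 2d-U and 19.8, 12.2 and 17.1 RPKM in 2+3d-C (log2 fold change -2.10, SE 0.38, adjusted p = 0.0012). Each was lower in all 3 compressed libraries. The members that rose were Hk2, a hexokinase, at 0.648, 0.531 and 2.36 RPKM in 2d-U and 7.44, 7.68 and 28.3 RPKM in 2+3d-C (log2 fold change 3.62, SE 0.77, adjusted p = 0.00384), and Pfkp, a phosphofructokinase, at 6.58, 4.87 and 5.53 RPKM in 2d-U and 25.5, 18.0 and 30.8 RPKM in 2+3d-C (log2 fold change 2.13, SE 0.39, adjusted p = 0.00138). Of their relatives in the list, Hk1 and Pfkm were not called and Pfkl, named after its values were seen, fell, a call that was lost without 2d-U replicate 3 and without replicates 4 and 5 of 2+3d-C. Of 90 nuclear genes of oxidative phosphorylation, 18 fell and 3 rose, and the lower count ranged from 5 to 62 over the alternatives (5 without 2d-U replicate 2 or 2+3d-C replicate 4, 38 without 2+3d-C replicate 5, 62 without TMM). Ndufaf7, an assembly factor of complex I, stood at 15.8, 14.5 and 14.4 RPKM in 2d-U and 0.850, 0.654 and 0.925 RPKM in 2+3d-C (log2 fold change -4.19, SE 0.59, adjusted p = 2.02e-04). The genes of the mitochondrial genome went the other way, with 6 of 10 higher and 0 lower. Cytochrome oxidase subunit mt-Co1 stood at 57.0, 95.9 and 49.9 RPKM in 2d-U and 364, 740.2 and 637 RPKM in 2+3d-C (log2 fold change 3.10, SE 0.71, adjusted p = 0.00586), and mitochondrial genes in all took 0.0681% to 0.161% of the reads in 2d-U and 0.243% to 0.553% in 2+3d-C. Of 84 genes of cytosolic ribosomal proteins, 2 rose and 4 fell. The lower count was 0 without any one library other than 2+3d-C replicate 5, 10 by DESeq2, 16 with the 2 groups alone and 41 without TMM, and the higher count was 0 or 1 without any one library. In the hypoxia list, 15 of 34 rose and 6 fell, and the falls included glycolytic enzymes. Ndrg1, induced by hypoxia and by stress, stood at 1.05, 0.202 and 0.858 RPKM in 2d-U and 299, 201 and 84.5 RPKM in 2+3d-C (log2 fold change 8.11, SE 0.89, adjusted p = 3.24e-05), and Mif, a cytokine-like tautomerase, at 422, 414 and 376 RPKM in 2d-U and 49.8, 120.4 and 77.8 RPKM in 2+3d-C (log2 fold change -2.29, SE 0.47, adjusted p = 0.0031).

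Cholesterol transport and lysosome genes rose more often than the 16.0% of all genes. Of 23 genes of lipoprotein and cholesterol transport, 10 rose and 1 fell, and of 48 of the lysosome and autophagy, 16 rose and 2 fell. Gabarapl1, which joins the autophagosome membrane, stood at 16.1, 17.1 and 16.1 RPKM in 2d-U and 154, 287 and 126 RPKM in 2+3d-C (log2 fold change 3.52, SE 0.43, adjusted p = 7.10e-05), with 28.3% of its exon bases shared. Gusb, beta-glucuronidase, went against them, at 36.8, 30.1 and 30.2 RPKM in 2d-U and 4.57, 4.08 and 3.82 RPKM in 2+3d-C (log2 fold change -2.96, SE 0.39, adjusted p = 1.25e-04). In sterol and fatty acid synthesis, 6 of 35 rose (2 without 2d-U replicate 1) and 2 fell. Insig2, which holds back sterol synthesis, stood at 8.76, 6.76 and 7.31 RPKM in 2d-U and 108, 134 and 67.5 RPKM in 2+3d-C (log2 fold change 3.76, SE 0.72, adjusted p = 0.00185).

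Antigen presentation and complement genes were higher in the compressed cells almost throughout. Of 31, 25 rose and 0 fell (median log2 fold change 5.82, or 4.52 with genes at 0 set to their bounds). H2-K1 and H2-D1 encode classical class I molecules of the major histocompatibility complex, and B2m their light chain. H2-K1 stood at 36.2, 34.1 and 31.8 RPKM in 2d-U and 555, 1312 and 492 RPKM in 2+3d-C (log2 fold change 4.53, SE 0.52, adjusted p = 4.54e-05). H2-D1 stood at 101, 107 and 99.2 RPKM in 2d-U and 925, 2556 and 939.5 RPKM in 2+3d-C (log2 fold change 3.85, SE 0.51, adjusted p = 1.19e-04), and B2m at 169.9, 160.2 and 178 RPKM in 2d-U and 855, 2689 and 794 RPKM in 2+3d-C (log2 fold change 3.09, SE 0.65, adjusted p = 0.00369). Reads can be shared between class I genes, which are near copies of each other. Serping1, the inhibitor of complement C1, stood at 0.641, 0.437 and 0.618 RPKM in 2d-U and 609, 1127 and 597 RPKM in 2+3d-C (log2 fold change 10.41, SE 0.75, adjusted p = 2.14e-06). In 5d-U the means were 26.8 ± 11.6 RPKM for H2-K1 and 0.848 ± 0.585 for Serping1, and in F 399 ± 60.7 and 516 ± 35.5. The immune markers given above moved with this group as well, and their part in it was not tested.

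Matrix genes rose more often than the 16.0% of all tested genes. Of 44 collagen genes, 23 rose and 1 fell, of 37 integrins and laminins, 20 and 4, of 55 matrix proteases and inhibitors, 23 and 3, and of 58 matrix glycoproteins and proteoglycans, 30 and 3. Of the collagens, 8 had at most 3 reads in all 6 libraries and 13 in the 2d-U libraries alone. The median log2 fold changes in this order were 3.2, 3.1, 2.0 and 2.8. Without replicates 4 and 5 of 2+3d-C they were 0.1, 1.1, 0.0 and 2.2. The summed integrins and laminins overlapped, at 210 to 286 RPKM in 2d-U and 146 to 483 RPKM in 2+3d-C. Fitted on the 2 groups alone, where fewer members were tested, 13 of 25 collagens and 9 of 21 integrins and laminins rose. Lama2, the laminin chain of the muscle basal lamina, stood at 0.456, 0.155 and 0.178 RPKM in 2d-U and 8.04, 2.45 and 8.11 RPKM in 2+3d-C (log2 fold change 4.55, SE 0.77, adjusted p = 7.52e-04). Itgav, an integrin subunit, stood at 2.31, 0.502 and 1.47 RPKM in 2d-U and 30.3, 13.0 and 19.4 RPKM in 2+3d-C (log2 fold change 3.87, SE 0.65, adjusted p = 7.05e-04). Adamts1, a secreted protease, stood at 1.90, 1.6 and 2.72 RPKM in 2d-U and 299, 43.5 and 126 RPKM in 2+3d-C (log2 fold change 6.23, SE 0.73, adjusted p = 5.48e-05). Groups did not overlap in any of the 3. Sdc4, a heparan sulfate proteoglycan of MuSCs, stood at 68, 64.7 and 68 RPKM in 2d-U and 1981, 1245 and 2473 RPKM in 2+3d-C (log2 fold change 4.83, SE 0.51, adjusted p = 2.46e-05). Vtn, vitronectin, rose from 0 RPKM in every 2d-U library to 56.6, 177 and 67.0 RPKM. Against the list, Lamb3 stood at 8.54, 5.95 and 3.08 RPKM in 2d-U and 0.399, 0.0547 and 0 RPKM in 2+3d-C (log2 fold change -5.17, SE 1.14, adjusted p = 0.00478), Sdc3 at 34.0, 31.9 and 29.1 RPKM in 2d-U and 6.44, 1.13 and 5.17 RPKM in 2+3d-C (log2 fold change -2.89, SE 0.68, adjusted p = 0.00674), and Igfbp3, a carrier of insulin-like growth factors, at 95.7, 60.6 and 66.6 RPKM in 2d-U and 8.77, 14.1 and 4.11 RPKM in 2+3d-C (log2 fold change -3.05, SE 0.49, adjusted p = 5.03e-04). Itgb1 and Itga7, the integrin pair that binds laminin in MuSCs, overlapped between the groups. Markers of fibroadipogenic cells, which make much of the muscle matrix, moved with these genes: the sum over 19 markers was 56.4 to 68.4 RPKM in 2d-U, 864, 895 and 1394 RPKM in 2+3d-C and 1514 to 9741 RPKM in F. Pdgfra, the defining receptor of those cells, had 0 reads in 2d-U and stood at 0.848, 0.0241 and 0.00910 RPKM in 2+3d-C, where replicates 5 and 10 held 2 reads each. Dpp4, another of the markers, had 0 reads in all 3. The part of such cells in the matrix levels was not tested.

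Markers of other cells rose together. Of 20 endothelial markers, 18 rose (sum 8.24 to 10.9 RPKM in 2d-U, 207, 306 and 190.0 in 2+3d-C), of 17 of pericytes and smooth muscle, 11 (153 to 204 and 727 to 748), and of 14 of Schwann cells and glia, 9 (10.6 to 14.0 and 273, 378 and 144). Of 10 erythroid markers 8 rose (5 without 2d-U replicate 1 or 2 or 2+3d-C replicate 4), of 6 of adipocytes 4, and of 28 immune markers 9. Mrc1 and Laptm5, of the immune list, were the members that fell. The adjusted p of Mrc1 was 0.0495, and 1 without 2d-U replicate 1, 0.138 without 2+3d-C replicate 4, 0.0705 without replicate 5 and 0.0792 without replicate 10. Mmrn1 and Lep, of lymphatic vessels and adipocytes, had 0 reads in all 3 compressed libraries. Fitted on the 2 groups alone, fewer members had enough reads to be tested. The rises were then 12 of 17, 7 of 13, 6 of 10, 5 of 6, 4 of 5 and 3 of 7 in the order given. For fibroadipogenic markers they were 9 of 16. Among the defining genes, Plvap, of vessel walls, stood at 1.58, 3.31 and 3.33 RPKM in 2d-U and 50.6, 70.0 and 54.2 RPKM in 2+3d-C (log2 fold change 4.41, SE 0.82, adjusted p = 0.00149), and Myh11, the myosin of smooth muscle, at 0 RPKM in 2d-U and 8.03, 1.94 and 11.1 RPKM in 2+3d-C. The globin gene Hbb-bs stood at 0.0983, 0 and 0 RPKM in 2d-U and 55.8, 175 and 10.6 RPKM in 2+3d-C (log2 fold change 10.80, SE 1.37, adjusted p = 9.25e-05). These sums were higher in F than in 2+3d-C for 6 of the 7 lists by their means, the exception being pericytes and smooth muscle, and were near those of 2d-U in 5d-U for fibroadipogenic cells, glia and adipocytes. Whether the markers came from other cells or from the MuSCs was not tested.

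**Figure D4:**
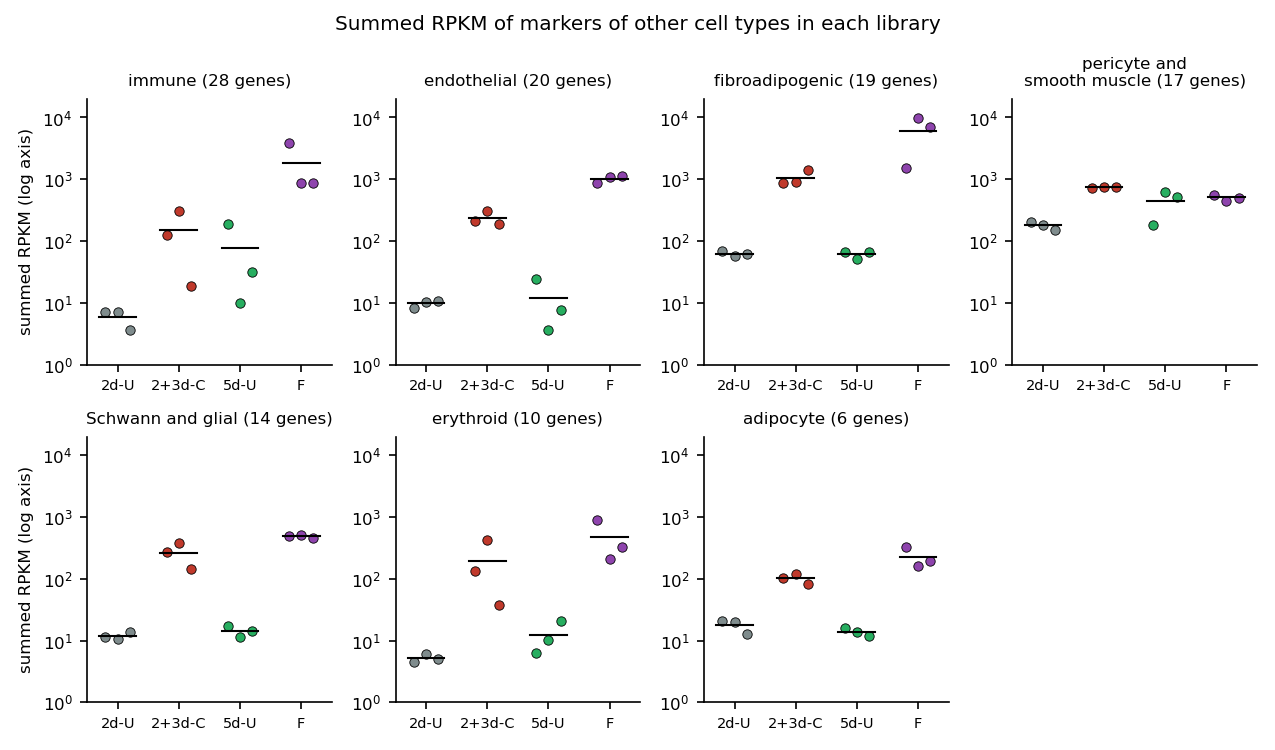
Summed RPKM of the tested marker genes of 7 other cell types in each library (points, log axes) with the group mean (bar), n = 3 libraries each in 2d-U, 2+3d-C, 5d-U and F. The 3 2+3d-C libraries lie above the 3 2d-U libraries in each panel, with replicate 10 the lowest of them for 5 of the 7 lists.

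Growth factor and BMP signalling genes rose more often than the 16.0% of all tested genes. Of 48 growth factor receptors and ligands, 24 rose and 2 fell, and of 48 genes of BMP, Id and TGF-beta signalling, 22 and 2. Fgfr1, the main fibroblast growth factor receptor of MuSCs, stood at 13.4, 10.6 and 11.7 RPKM in 2d-U and 235, 51.5 and 258 RPKM in 2+3d-C (log2 fold change 3.93, SE 0.58, adjusted p = 2.85e-04). Smad3, the transducer of TGF-beta signals, stood at 0.936, 0.332 and 0.423 RPKM in 2d-U and 34.8, 10.4 and 27.9 RPKM in 2+3d-C (log2 fold change 5.43, SE 0.65, adjusted p = 5.93e-05), and the ligand Tgfb2 at 0.655, 0.351 and 1.43 RPKM in 2d-U and 43.0, 23.4 and 65.7 RPKM in 2+3d-C (log2 fold change 5.76, SE 0.75, adjusted p = 1.09e-04). All were higher in every compressed library, and replicate 5 was the lowest in each. Id2 overlapped between the groups. Feedback on the ERK kinases split, with 8 of 20 higher and 3 lower. The phosphatase Dusp1 stood at 4.38, 4.21 and 3.27 RPKM in 2d-U and 374, 773 and 389 RPKM in 2+3d-C (log2 fold change 7.02, SE 0.62, adjusted p = 6.93e-06), whereas Etv4, a factor induced by fibroblast growth factor, stood at 13.4, 7.89 and 10.0 RPKM in 2d-U and 0.832, 0.194 and 0.132 RPKM in 2+3d-C (log2 fold change -4.70, SE 0.88, adjusted p = 0.00163). Of 54 Wnt genes, 14 rose and 2 fell, a count of rises that was 7 or 8 without any of the 2d-U libraries and 8 without TMM. Ror1, a Wnt receptor, stood at 0.481, 0 and 0.545 RPKM in 2d-U and 32.9, 20.7 and 27.3 RPKM in 2+3d-C (log2 fold change 6.28, SE 1.20, adjusted p = 0.00182), and the ligand Wnt7b at 2.33, 4.93 and 2.08 RPKM in 2d-U and 0 RPKM in 2+3d-C.

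Some genes of the cytoskeleton and of mechanical sensing rose and others fell. The actin counts below stand against 16.0% higher and 8.63% lower among all tested genes. Among tested genes with more than 3 reads in at least 1 of the 6 libraries, the shares were 19.8% and 10.7%. The actin counts lie near these shares and do not set that list apart as a group. Of 58 actin genes, 11 rose (6 without replicates 4 and 5 of 2+3d-C) and 8 fell (14 without TMM, 5 without replicates 4 and 5). Actn1, which crosslinks actin at focal adhesions, stood at 52.8, 74.7 and 58.3 RPKM in 2d-U and 1.81, 0.676 and 2.62 RPKM in 2+3d-C (log2 fold change -5.17, SE 0.53, adjusted p = 1.98e-05). Flnc, the muscle filamin that senses strain, stood at 3.98, 0.753 and 2.38 RPKM in 2d-U and 330.4, 72.1 and 227 RPKM in 2+3d-C (log2 fold change 6.47, SE 0.86, adjusted p = 1.34e-04), and Gsn, gelsolin, which severs filaments, at 21.8, 16 and 18.1 RPKM in 2d-U and 550.2, 454 and 1114 RPKM in 2+3d-C (log2 fold change 5.24, SE 0.71, adjusted p = 1.56e-04). Actb overlapped, at 613, 638 and 668 RPKM in 2d-U and 1728, 2482 and 510.5 RPKM in 2+3d-C. Actn1 was also low in 5d-U, at 6.93 ± 0.648 RPKM. Of 28 targets of YAP, the coactivator that flat and stretched cells hold in the nucleus, 9 rose and 8 fell (median 0.01, or -0.52 without TMM and -1.05 without 2+3d-C replicate 4). Its classical targets moved apart. Ccn2 stood at 12.9, 9.86 and 8.69 RPKM in 2d-U and 1155, 937 and 1851 RPKM in 2+3d-C (log2 fold change 6.97, SE 1.17, adjusted p = 7.00e-04), with 23.2% of its exon bases shared, whereas Ankrd1 stood at 686, 649 and 671 RPKM in 2d-U and 71.1, 171 and 27.4 RPKM in 2+3d-C (log2 fold change -2.90, SE 0.76, adjusted p = 0.0129). Neither overlapped between the groups. Ajuba, an adaptor that restrains the Hippo kinases, stood at 30.4, 26.1 and 28.7 RPKM in 2d-U and 2.26, 0.397 and 0 RPKM in 2+3d-C (log2 fold change -4.96, SE 1.19, adjusted p = 0.00798).

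In the nuclear lamina and its links to the cytoskeleton, 6 of 19 rose and 2 fell (3 higher without replicates 4 and 5 of 2+3d-C). Syne2, the nesprin that ties the nucleus to actin, stood at 0.124, 0.132 and 0.0968 RPKM in 2d-U and 9.17, 4.53 and 3.75 RPKM in 2+3d-C (log2 fold change 5.63, SE 0.52, adjusted p = 1.03e-05), and Tmpo, a lamina protein that cycling cells need, at 46.5, 30.9 and 37.6 RPKM in 2d-U and 7.37, 5.54 and 5.35 RPKM in 2+3d-C (log2 fold change -2.66, SE 0.47, adjusted p = 0.0011). Of 21 mechanosensitive channels, 8 rose and 1 fell (5 higher without replicates 4 and 5). Piezo2 was at 0 reads in 2d-U and at 2.16, 0.618 and 1.79 RPKM in 2+3d-C, at least 326-fold higher. Piezo1, with 24.6% of its exon bases shared, stood at 4.33, 2.17 and 3.82 RPKM in 2d-U and 33.6, 5.67 and 13.7 RPKM in 2+3d-C (adjusted p = 0.0148), and its call was lost without 2d-U replicate 2, without 2+3d-C replicate 4, without replicates 4 and 5 together and without TMM (adjusted p = 0.0606, 0.097, 0.0513 and 0.0623). Of 24 cadherins, catenins and other adhesion genes, 12 rose (6 without 2d-U replicate 2, 7 without TMM) and 3 fell. Vcam1, an adhesion molecule of quiescent MuSCs, stood at 22.4, 16.5 and 23 RPKM in 2d-U and 376, 286 and 177 RPKM in 2+3d-C (log2 fold change 3.76, SE 0.46, adjusted p = 7.38e-05), and Icam1 at 0.740, 0.269 and 0.614 RPKM in 2d-U and 80.9, 74.9 and 40.4 RPKM in 2+3d-C (log2 fold change 6.91, SE 0.86, adjusted p = 8.20e-05). Cdh2, N-cadherin, fell against them, at 16.4, 12.9 and 13.8 RPKM in 2d-U and 1.82, 0.254 and 0.402 RPKM in 2+3d-C (log2 fold change -4.10, SE 0.79, adjusted p = 0.00191).

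Of 19 genes of the circadian clock, 16 rose and 0 fell (median 2.99), against 16.0% higher among all tested genes. The clock factors Clock and Arntl raise the repressors Per, Cry and Nr1d1 through E-boxes. Nr1d1, REV-ERB alpha, stood at 5.94, 4.18 and 7.63 RPKM in 2d-U and 97.8, 108 and 158 RPKM in 2+3d-C (log2 fold change 4.36, SE 0.78, adjusted p = 0.00121). Cry1 stood at 12.1, 9.72 and 10.8 RPKM in 2d-U and 65.7, 33.1 and 50.5 RPKM in 2+3d-C (log2 fold change 2.20, SE 0.46, adjusted p = 0.00355), and Rora, which competes with Nr1d1, at 0.169, 0.326 and 0.421 RPKM in 2d-U and 13.2, 18.6 and 8.70 RPKM in 2+3d-C (log2 fold change 5.46, SE 0.69, adjusted p = 8.56e-05). The groups did not overlap in any of these genes, and 3 members of the list were not called. Whether the cultures were lysed at 1 time of day is not given in the sources used here. The E-box CACGTG was found in 28.6% of 21 promoter windows of the list and in 7.15% of all. Of 20 FoxO and insulin feedback genes, which rise when insulin signalling is low, 7 rose and 0 fell. Foxo1 stood at 1.66, 0.600 and 1.08 RPKM in 2d-U and 12.6, 8.86 and 11.1 RPKM in 2+3d-C (log2 fold change 3.28, SE 0.44, adjusted p = 1.49e-04) and Irs2, the insulin receptor substrate, at 2.84, 1.73 and 1.67 RPKM in 2d-U and 99.7, 46.3 and 33.2 RPKM in 2+3d-C (log2 fold change 4.84, SE 0.77, adjusted p = 4.91e-04).

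Chromatin genes split, with 8 of 38 higher (5 without 2d-U replicate 2 or 3) and 10 lower (16 without TMM). Kdm6b, which removes the repressive methyl mark of H3K27, stood at 0.0923, 0.163 and 0.102 RPKM in 2d-U and 19.6, 17.7 and 26.1 RPKM in 2+3d-C (log2 fold change 7.48, SE 0.76, adjusted p = 1.87e-05), and Hdac4, a histone deacetylase, at 0.625, 1.11 and 1.32 RPKM in 2d-U and 17.5, 8.58 and 12.7 RPKM in 2+3d-C (log2 fold change 3.67, SE 0.49, adjusted p = 1.34e-04). Hells, a remodeller of dividing cells, stood at 23.5, 14.4 and 16.2 RPKM in 2d-U and 0.00779, 0.0167 and 0 RPKM in 2+3d-C, and Hmgb2 at 82.5, 84.8 and 79.6 RPKM in 2d-U and 8.04, 19.3 and 7.09 RPKM in 2+3d-C (log2 fold change -2.85, SE 0.65, adjusted p = 0.00617). Of 25 clustered histone genes, 7 fell, a count that was 3 or 4 without any of the 6 libraries. Of 50 genes of ribosome biogenesis, 9 rose and 1 fell, and of 38 of retinoic acid and prostaglandin enzymes, 10 and 4. Of 53 translation initiation factors, 9 rose and 3 fell, and of 38 proteasome genes, 3 and 3. These stand against 16.0% higher and 8.63% lower among all tested genes. Without 1 of the 2d-U libraries, 2 to 4 genes of ribosome biogenesis, 3 to 6 of the retinoic acid list and 2 to 4 initiation factors rose, and without replicates 4 and 5 of 2+3d-C, 1, 3 and 1 did. Without TMM, 3 initiation factors rose and 10 fell. The lower proteasome genes numbered 18 without TMM, 8 without 2+3d-C replicate 5 or with the 2 groups alone, and 1 without any other single library.

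**Figure D5:**
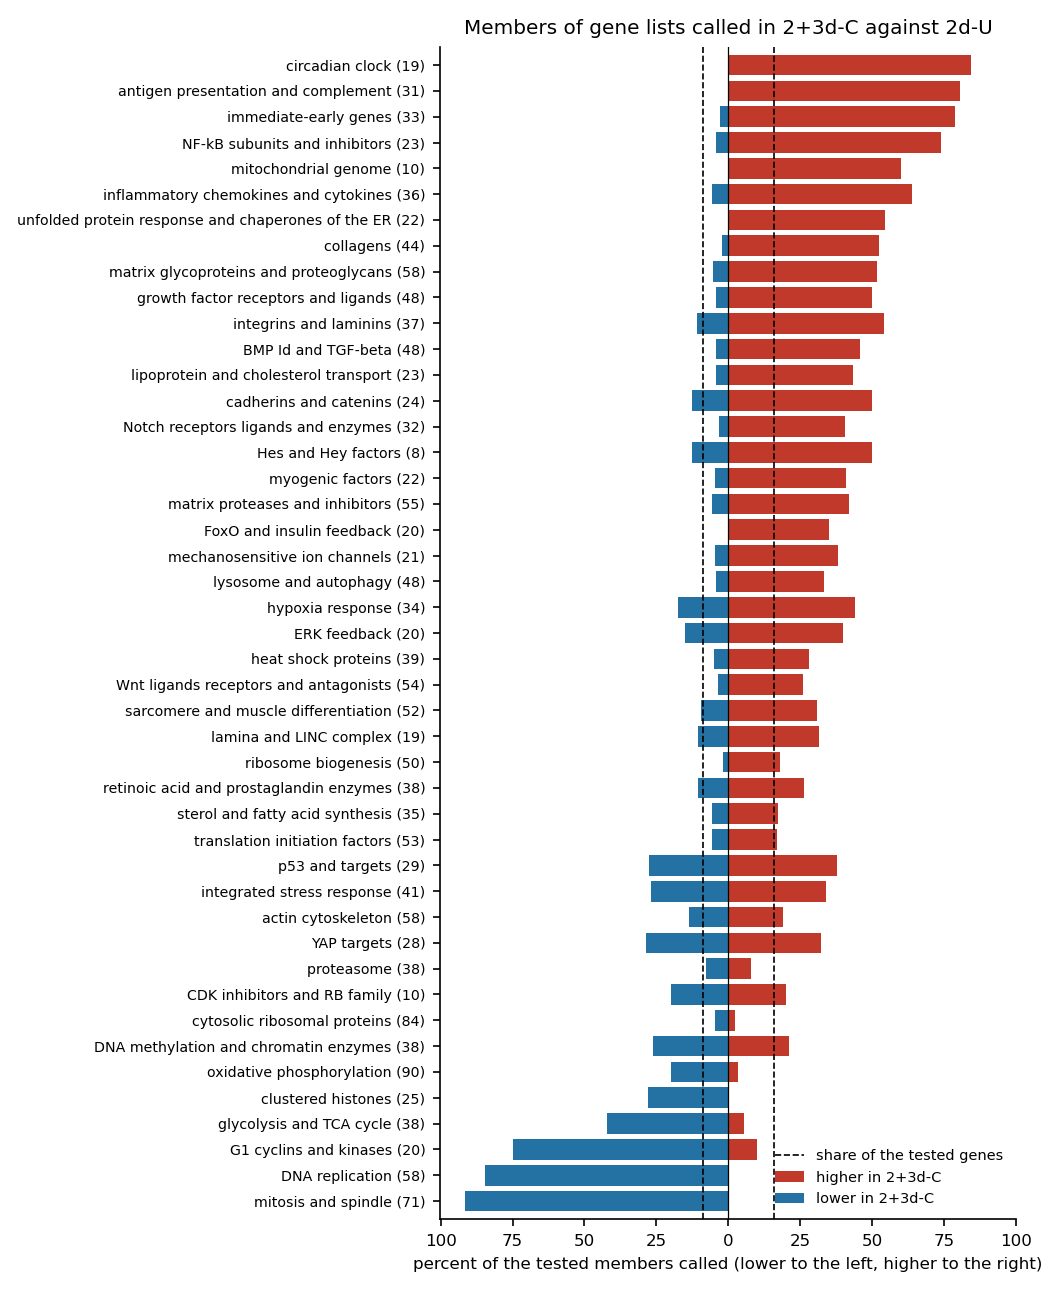
Percent of the tested members of 45 gene lists called higher (red, to the right) and lower (blue, to the left) in 2+3d-C against 2d-U, with the number of tested members in brackets. Dashed lines mark the 16.0% and 8.63% of all tested genes, and the circadian clock, antigen presentation and complement, and immediate-early lists lie at the top, with DNA replication and mitosis at the bottom.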

How the data were processed

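RNA of 12 libraries (SMART-seq v4 Ultra Low Input, 75-base single-end reads) was aligned by the authors to mm10 with the nf-core/rnaseq workflow and counted per gene on GENCODE vM23. The deposited values are raw read counts from featureCounts 1.6.4, per the file headers, counted without regard to strand. Groups were taken from the treatment labels. Counts were tested with edgeR 4.0.16 (R 4.3.3; filterByExpr, TMM, quasi-likelihood F-test, all 12 libraries in 1 fit) and adjusted by Benjamini-Hochberg over the 22635 genes tested, with calls at 0.05. On simulated counts of 22635 genes, the procedure recovered 102 of 200 changed genes and made 4 false calls. The simulation changed only abundant genes, by fixed amounts and as many up as down. Far more genes were called in the data, and more of them higher than lower. The simulated numbers therefore do not give the sensitivity or error rate of this comparison. RPKM used exon length and TMM-scaled library size. Genes with 0 reads in a group were set to 3 reads in each library for a bound, which covers counting error only. Genes sharing over 20% of their exon bases with another gene were treated as uncertain.

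The genes named were the 12 largest rises and 12 largest falls among called genes whose groups did not overlap and whose higher group averaged 10 CPM or more, the study's quiescence and activation panels, of each of 54 lists the 3 most abundant members, the 3 with the smallest p and those called against the majority, the 12 most abundant genes of each group, and Pax7 and Myod1. Predicted-gene, clone and mitochondrial symbols were left out of the largest rises and falls. The lists and the comparison were chosen with earlier results of these data known. Promoter sequences came from RefSeq (GRCm38.p6). Alternatives were DESeq2 1.42.0, library size without TMM, mitochondrial genes left out, other filters (none, or at least 5 CPM), the 2 groups alone, and each library left out in turn. Some genes that the naming rule takes are not reported here.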

Additional observations from a re-analysis of the deposited data

How the results depend on the processing

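No called gene was called in the other direction under any of the alternatives run. The number called did change. The higher count, 3619 as reported, was 2209 with the 2 groups fitted alone and 2321 with replicates 4 and 5 of 2+3d-C left out, an alternative chosen after seeing the data. With each library left out in turn it ranged from 2340 to 3556, and the lower count, 1954 as reported, from 1385 to 2037. The lower count was 3143 with library size in place of TMM. DESeq2 called 4638 higher and 2801 lower and gave no adjusted p for 2534 genes. No filter gave 3794 and 1988 of 49901 tested, and a filter at 5 CPM 2808 and 1706 of 10816. The fit without mitochondrial genes gave 3621 and 1952. The number of genes tested thus changed along with the counts in several of these fits. The cause of these changes was not tested. The 56 list counts of 5 or more gave 728 values under the alternatives, of which 637 stayed within 1.5 times of the reported count and 91 did not. Counts under 5 are not in these totals, and those that moved most are given beside their lists. No paired analysis was possible because the 2 groups share no replicate number. With 3 libraries a group and 12540745 reads in the shallowest, genes that were not called are not shown to be equal between the groups.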

Other observations

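The genes below were chosen after their values were seen and do not describe a group. Among genes known to respond to the antioxidant factor NRF2, Srxn1, sulfiredoxin, stood at 60.5, 54.5 and 42.4 RPKM in 2d-U and 1341, 1495 and 479 RPKM in 2+3d-C (log2 fold change 4.40, SE 0.54, adjusted p = 7.93e-05), Gstm1, a glutathione transferase, at 41.6, 39.9 and 35.8 RPKM in 2d-U and 333, 1139 and 477 RPKM in 2+3d-C (log2 fold change 4.05, SE 0.67, adjusted p = 6.26e-04), and Osgin1 at 4.19, 2.16 and 4.63 RPKM in 2d-U and 167, 199.5 and 65.6 RPKM in 2+3d-C (log2 fold change 5.29, SE 0.60, adjusted p = 3.86e-05). Ptgr1, a prostaglandin reductase, stood at 247, 221 and 191 RPKM in 2d-U and 6.99, 7.56 and 7.43 RPKM in 2+3d-C (log2 fold change -4.91, SE 0.58, adjusted p = 5.80e-05), and Gsr, glutathione reductase, at 106, 84.8 and 87.9 RPKM in 2d-U and 22.3, 21.1 and 11.4 RPKM in 2+3d-C (log2 fold change -2.35, SE 0.45, adjusted p = 0.00185). G6pdx, which supplies NADPH to both, stood at 102, 98.2 and 90.0 RPKM in 2d-U and 14.8, 4.58 and 26.9 RPKM in 2+3d-C (log2 fold change -2.64, SE 0.51, adjusted p = 0.00194). The 5d-U means of Srxn1 and Ptgr1 were 43.5 ± 3.42 and 284 ± 212 RPKM.

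Of interleukin-6 family signalling, 4 genes were chosen in the same way. The ligand Clcf1 stood at 10.4, 10.4 and 8.12 RPKM in 2d-U and 259, 246 and 147 RPKM in 2+3d-C (log2 fold change 4.49, SE 0.53, adjusted p = 5.71e-05). Osmr, a receptor of the family, stood at 0.00779, 0.100 and 0 RPKM in 2d-U and 55.9, 11.3 and 23.8 RPKM in 2+3d-C (log2 fold change 9.85, SE 1.44, adjusted p = 2.61e-04). Stat3, its transducer, stood at 3.17, 4.20 and 2.46 RPKM in 2d-U and 237, 64.2 and 141 RPKM in 2+3d-C (log2 fold change 5.49, SE 0.52, adjusted p = 1.23e-05), and Socs3, its feedback inhibitor, at 4.99, 1.83 and 2.45 RPKM in 2d-U and 97.3, 55.1 and 90.1 RPKM in 2+3d-C (log2 fold change 4.71, SE 0.66, adjusted p = 1.92e-04). In F, Socs3 had a mean of 238 ± 125 RPKM.

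Further single genes, also chosen after their values were seen, were higher in 2+3d-C. Meg3, a long non-coding RNA of the imprinted Dlk1 cluster, stood at 0.00522, 0.0216 and 0.0244 RPKM in 2d-U and 29.7, 37.1 and 30.5 RPKM in 2+3d-C (log2 fold change 10.90, SE 0.69, adjusted p = 1.57e-06), above its F mean of 3.35 ± 1.24 RPKM. Arl4d, a small GTPase, stood at 3.13, 0.821 and 0.672 RPKM in 2d-U and 1094, 2545 and 830.0 RPKM in 2+3d-C (log2 fold change 9.90, SE 0.90, adjusted p = 8.59e-06). Erfe, the hormone erythroferrone, also called myonectin, stood at 10.3, 5.36 and 5.81 RPKM in 2d-U and 2008, 808 and 1093 RPKM in 2+3d-C (log2 fold change 7.51, SE 0.88, adjusted p = 5.07e-05). Rnd3, an atypical small GTPase, stood at 10.5, 9.27 and 6.60 RPKM in 2d-U and 322, 323 and 303 RPKM in 2+3d-C (log2 fold change 5.17, SE 0.59, adjusted p = 4.17e-05), even across the compressed libraries. Of all 3619 higher genes, the mean level of 2+3d-C was above that of F in 1988 and at or below it in 1631.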
